A study of Homo sapiens with 6 samples.

Results

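The initiation and elongation factors of cytosolic translation were followed upon silencing of ZNF148 in MDA-MB-231 cells, an established triple-negative breast cancer line labelled as basal. Members were the rows of the deposited expression table in which a gene symbol began with EIF1 to EIF6 or with EEF1 or EEF2. The kinase EIF2AK2 and the Argonaute genes once named EIF2C1 to EIF2C4 were left out. This gave 66 rows for 63 genes of 24108 rows in all, and 60 rows for 58 genes were abundant enough to be tested.

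Both groups of 3 replicates were transduced with lentivirus for 48 h and selected for 24 h in 0.5 µg/ml puromycin. The shCtr cells carried a hairpin against luciferase in the LKO vector, and the shZNF148 cells carried a hairpin against ZNF148. Each group rests on 1 hairpin. No label says that the replicates came from separate cultures, so the p-values measure only the spread between these samples, which may be technical. The values are bulk FPKM (fragments per kilobase of transcript and per mapped fragments of the library), so whether fewer cells carried a transcript or each cell carried less of it cannot be told apart.

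Translation begins when eIF2 brings the initiator tRNA to the small ribosomal subunit, which eIF3 and the small factors eIF1, eIF1A and eIF5 prepare for scanning. The eIF4F complex loads this subunit onto the capped mRNA, and the 4E-BP proteins block that step by holding the cap-binding protein eIF4E. After the subunits join, eEF1A delivers each aminoacyl-tRNA, eEF2 moves the ribosome along by a codon, and eIF5A helps with stretches that are slow to form peptide bonds.

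The gene of the targeted transcription factor, ZNF148, spans bases 125225669 to 125375325 of chromosome 3 in GRCh38 (minus strand). It stood at 3.72, 4.36 and 4.30 FPKM in shCtr replicates 1, 2 and 3 and at 0.914, 0.282 and 0.834 FPKM in the shZNF148 replicates, which is 16.4% of the control mean. The groups did not overlap, and ZNF148 fell by 1.63 on the log2(FPKM + 1) scale (SE 0.18, limma adjusted p = 0.0099, and up to 0.0673 with a control replicate left out). Summed FPKM ranged from 469594 to 507312 per sample, and depth relative to shCtr replicate 1, read from the steps between low values, from 0.806 to 1.13. The number of reads is unknown. Markers of this mesenchymal line were abundant in both groups, with mean VIM at 1772 and 1516 FPKM and mean CD44 at 588 and 429 FPKM in shCtr and shZNF148. CD44 and AXL were lower in shZNF148 (limma adjusted p = 0.0185 and 0.0364). VIM, MSN and CAV1 were also fitted lower, with adjusted p-values above 0.05. Of the epithelial markers, EPCAM had group means of 10.6 and 9.04 FPKM, and CDH1 of 0.368 and 0.234 FPKM. The estrogen receptor gene ESR1 was listed at 0 in all 6 samples, and the leukocyte and endothelial markers had group means of at most 0.0907 FPKM. The row of ERBB2 also holds the microRNA MIR4728 and cannot be read for ERBB2 alone. It stood at 126 and 125 FPKM in replicate 2 of shCtr and of shZNF148, against 20.1 to 24.8 FPKM in the other 4 samples. The part of this in the results was not tested.

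Translation factors were abundant transcripts. The mean level of the tested rows ranged from 2.44 FPKM (EIF5AL1) to 993 FPKM (a row of EIF3E), with a median of 52.8 FPKM against 12.6 FPKM over all 11777 tested rows. All member rows together made up 1.51%, 1.53% and 1.55% of the summed FPKM in the shCtr replicates and 1.48%, 1.43% and 1.45% in the shZNF148 replicates. Every shZNF148 value lay below every shCtr value, with means of 1.53 ± 0.0212% and 1.46 ± 0.0249% (SD, n = 3). The exact two-sided permutation p was 0.1, below which a design of 3 against 3 cannot go.

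Upon silencing of ZNF148, 12 of the 60 tested rows passed the test, which was an adjusted p under 0.05 from limma over all tested rows. Higher in shZNF148 were 3 rows (EIF4EBP2, EIF1AD and EIF4G2), or 5% of the factors against 5.46% of all tested rows. Lower were 9 rows (EEF1A2, EIF4B, EEF2K, EIF2A, EEF1B2, EIF3D, EIF3F, EIF2D and EEF2), or 15% against 8.13%. With a change of more than 1.5-fold required as well, 1 row was higher (1.67% against 1.83% of all rows) and 2 rows were lower (3.33% against 3.66%). The share past both thresholds was thus near the background in either direction.

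The counts depended on single libraries of both groups. Without shCtr replicate 1 and without shCtr replicate 3, limma passed 0 factor rows, while 21 and 18 factor rows (35% and 30%, against 24.4% and 25.3% of all rows) had an unadjusted p under 0.05. In the same fits only 29 and 22 rows passed among all genes. With shCtr replicate 2 left out, 2 factor rows were higher and 1 was lower, while 69 and 170 of all rows were. The counts were 2 and 3 without shZNF148 replicate 1, 3 and 11 without shZNF148 replicate 2, and 1 and 4 without shZNF148 replicate 3. In the same 3 fits, 82 and 257, 628 and 1092, and 383 and 611 of all rows passed higher and lower. With all samples, 27 factor rows (45%) had an unadjusted p under 0.05, against 33.8% of all rows. The fitted direction of all 12 rows stayed the same in each of these fits. Since the groups of these 12 rows did not overlap, leaving out a sample could not have turned it. It also stayed the same in the other alternatives, where EEF2K (mean 3.80 FPKM) was absent from the fit with a filter of 5 FPKM.

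**Figure D1:**
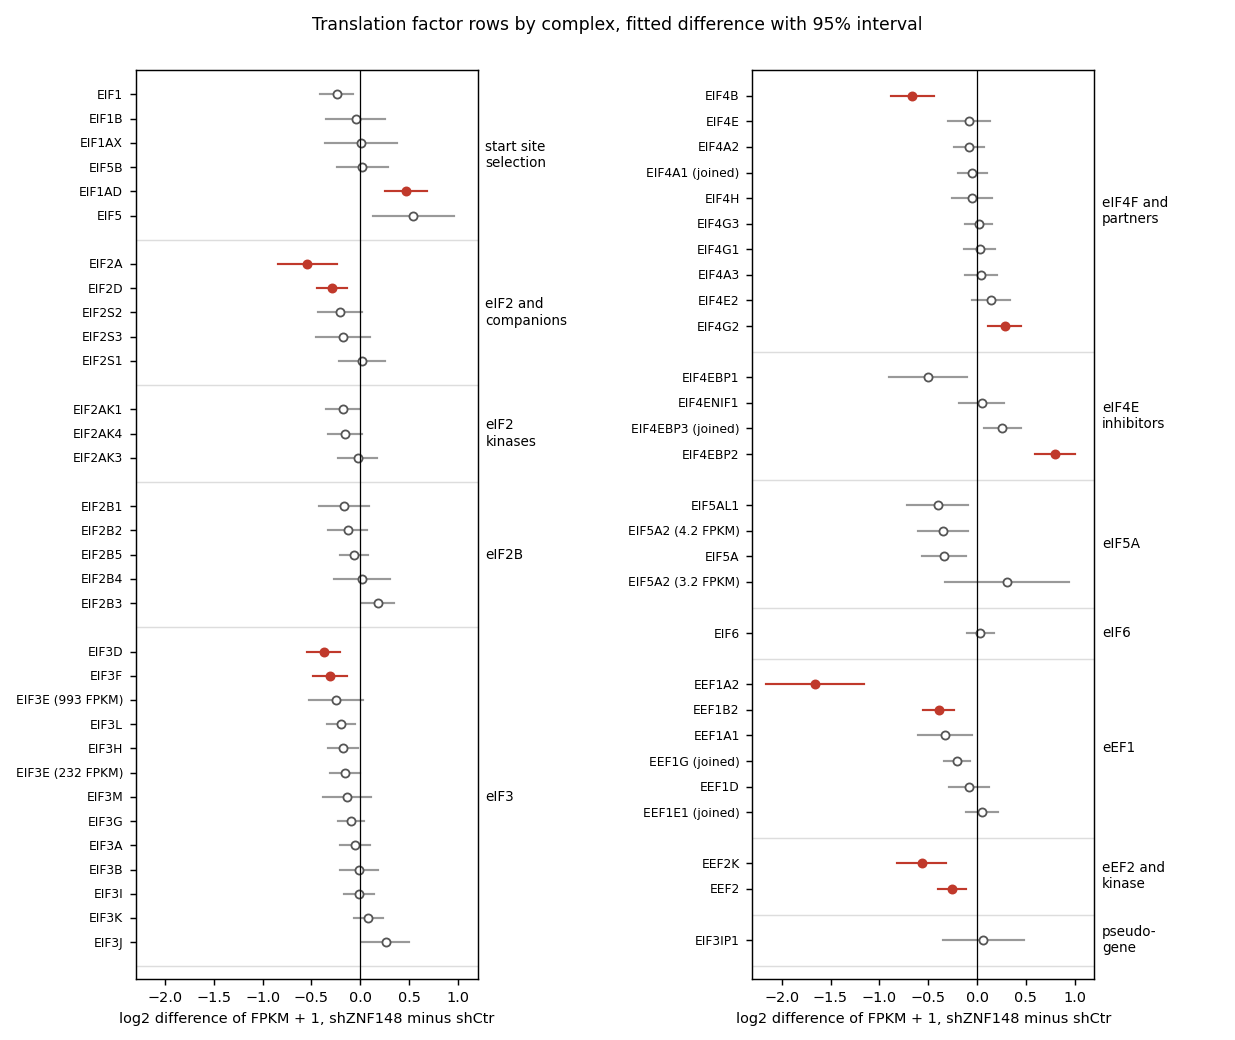
Fitted difference of each of the 60 tested translation factor rows, in log2 of FPKM + 1 (shZNF148 minus shCtr), by complex. Points are limma estimates and bars 95% intervals over 3 samples a group, and filled red points mark the 12 rows with an adjusted p under 0.05, of which EEF1A2 lies farthest to the left at -1.66 and EIF4EBP2 farthest to the right at 0.80.

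Most fitted differences were small. The median over the 60 rows was -0.08, against 0.01 over all tested rows, and the quartiles were -0.24 and 0.03 against -0.19 and 0.18. Of the 60 rows, 39 (65%) were fitted lower, against 49.1% of all rows. All shZNF148 values lay below all shCtr values for 22 rows (36.7%, against 21.0% of all rows) and above them for 8 rows (13.3%, against 20.0%), and 30 rows overlapped. After quantile normalization, which forces the same distribution on each sample, the factor median was -0.03 and 34 rows were fitted lower. Level and difference were nearly unrelated across the 60 rows (Spearman's rho -0.109), and these rows share the same libraries.

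**Figure D2:**
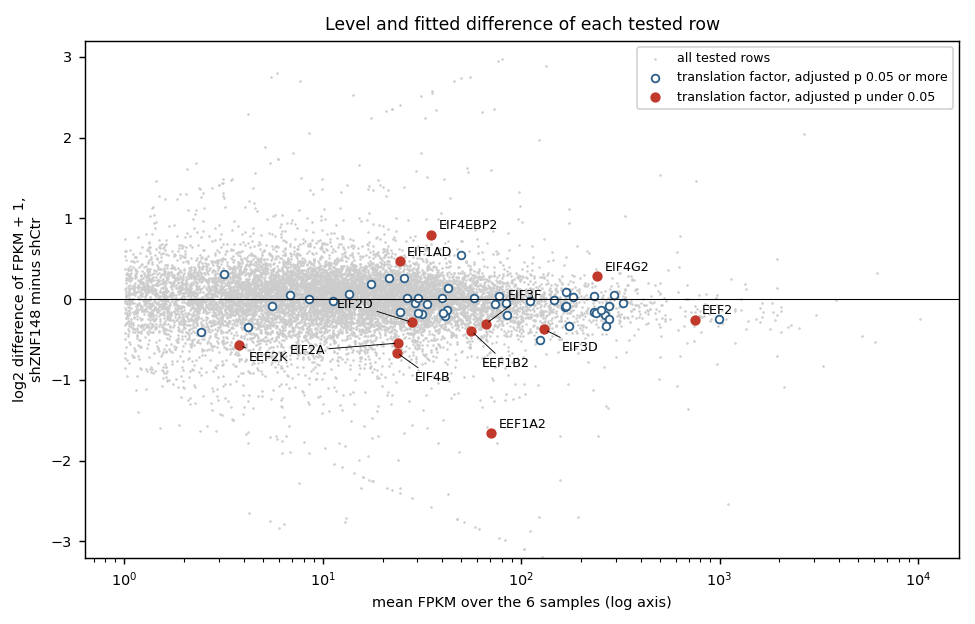
Mean level over the 6 samples (FPKM, log axis) against the fitted log2 difference (shZNF148 minus shCtr) for all 11777 tested rows in grey and for the translation factors, open where the adjusted p was 0.05 or more and filled red where it was under 0.05. The factors lie mostly to the right, around a median level of 52.8 FPKM, and 19 grey rows fall outside the vertical axis.

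The elongation factors held the member that changed most. EEF1A2 encodes the eEF1A form known from muscle and neurons and expressed in some tumours, and spans bases 63488013 to 63499239 of chromosome 20 (minus strand). It stood at 120.4, 92.3 and 109 FPKM in the shCtr replicates and at 41.4, 23.5 and 37.1 FPKM in the shZNF148 replicates. All 3 shZNF148 samples lay well under the lowest control, and replicate 2 was the lowest of its group on either side. The mean fell from 107 ± 14.1 to 34.0 ± 9.32 FPKM (SD, n = 3), to 31.7% of the control, with a log2 difference of -1.66 (SE 0.21, 95% interval -2.16 to -1.16, limma adjusted p = 0.0118).

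EEF1A1, the form that nearly all cells use, was at 192, 190.1 and 195 FPKM in shCtr and at 152, 181 and 131 FPKM in shZNF148. The groups did not overlap, but shZNF148 was spread widely, and the difference of -0.33 did not pass (limma adjusted p = 0.1002). Without shZNF148 replicate 2 it was -0.45 and passed (adjusted p = 0.0206). Many processed copies of EEF1A1 exist in the genome, so its reads may be shared with them. EEF1A2 amounted to 0.628, 0.486 and 0.558 of the EEF1A1 level within the shCtr samples and to 0.273, 0.130 and 0.284 within the shZNF148 samples, both on the per-length FPKM scale. The ratio was lower in all 3 shZNF148 samples, with an exact two-sided permutation p of 0.1 and 0.2 after Benjamini-Hochberg adjustment over the 14 ratios computed.

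The remaining eEF1 subunits recharge eEF1A with GTP. EEF1B2, the exchange factor itself, was at 62.1, 68.5 and 60.5 FPKM in shCtr and at 47.8, 49.4 and 47.6 FPKM in shZNF148. The shZNF148 values were closely grouped under all controls, and the fall of 0.39 on the log2 scale passed (SE 0.07, limma adjusted p = 0.0206). EEF1G, a structural subunit whose row also holds the microRNA MIR3654, differed by -0.20 and did not pass (limma adjusted p = 0.0562), although its groups did not overlap. EEF1D, another exchange subunit, overlapped between groups with a difference of -0.08. EEF1E1, a partner of the aminoacyl-tRNA synthetase complex, had the highest mean of the group, but its row is joined with TXNDC5 and MUTED and cannot be read for EEF1E1 alone. Over the 6 eEF1 rows, 0 rose and 2 fell (5.46% and 8.13% of all tested rows did), with a median difference of -0.26.

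EEF2 and its kinase both fell. EEF2, the translocase, stood at 836, 788 and 824 FPKM in shCtr and at 665, 715 and 672 FPKM in shZNF148. The groups were clearly apart relative to their spread, and the mean was 83.8% of control, with a log2 difference of -0.25 (SE 0.06, limma adjusted p = 0.0419). After quantile normalization this difference was -0.06 with an adjusted p of 0.502. At an unchanged difference, the adjusted p was 0.0868 with no filter on low values and 0.0596 without the variance trend.

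EEF2K, the kinase that phosphorylates and so inhibits eEF2, spans bases 22206278 to 22288738 of chromosome 16 (plus strand). Its level was far lower than that of its substrate, at 4.76, 4.97 and 4.46 FPKM in shCtr and at 2.93, 2.48 and 3.21 FPKM in shZNF148. All shZNF148 samples lay under all controls, with means of 4.73 ± 0.253 and 2.87 ± 0.370 FPKM (SD, n = 3) and a log2 difference of -0.57 (SE 0.11, limma adjusted p = 0.0252). This scale understates the change of so low a gene: the mean in shZNF148 was 60.7% of control. The 250 bases before its RefSeq start, on chr16:22206028-22206277 of GRCh38.p14, plus strand, are shown because the words searched for below stand close together in them. Capitals mark the GC box (GGGCGG or CCGCCC) and the E-box (CACGTG).
EEF2K promoter: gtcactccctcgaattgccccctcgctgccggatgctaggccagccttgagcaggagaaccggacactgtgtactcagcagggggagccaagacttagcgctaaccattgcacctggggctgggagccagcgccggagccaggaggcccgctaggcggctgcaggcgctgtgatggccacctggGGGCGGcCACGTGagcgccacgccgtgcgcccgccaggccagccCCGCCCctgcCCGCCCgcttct

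In the cap-binding machinery, an inhibitor of eIF4E and a scaffold rose and a helicase cofactor fell. EIF4EBP2, a 4E-BP that binds eIF4E until mTOR complex 1 phosphorylates it, spans bases 70404145 to 70428618 of chromosome 10 (plus strand). It stood at 24.2, 25.5 and 26.6 FPKM in shCtr and at 42.3, 50.3 and 42.6 FPKM in shZNF148. Every shZNF148 sample was far above every control, and the mean rose from 25.4 ± 1.19 to 45.1 ± 4.54 FPKM (SD, n = 3), to 177% of control. The log2 difference of 0.80 (SE 0.09, limma adjusted p = 0.0099) was the only rise among the factors of more than 1.5-fold. Its promoter, on chr10:70403895-70404144 of GRCh38.p14, plus strand, is printed for comparison with that of EEF2K. It held the GC box, again in capitals, and no E-box.
EIF4EBP2 promoter: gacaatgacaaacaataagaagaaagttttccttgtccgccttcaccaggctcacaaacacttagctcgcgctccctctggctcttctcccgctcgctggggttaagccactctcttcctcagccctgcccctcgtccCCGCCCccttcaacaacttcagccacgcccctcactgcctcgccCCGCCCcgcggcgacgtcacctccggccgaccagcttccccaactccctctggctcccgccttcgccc

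EIF4EBP1, the best-known 4E-BP, was the more abundant one, at 144, 143 and 145 FPKM in shCtr and at 125, 76.6 and 109 FPKM in shZNF148. All shZNF148 values lay under the tight controls but were widely spread, and the difference of -0.50 did not pass (SE 0.17, limma adjusted p = 0.0908). Without shZNF148 replicate 2 it was smaller, at -0.30, and passed (adjusted p = 0.0429). The level of EIF4EBP2 relative to EIF4EBP1 was 0.168, 0.179 and 0.183 in shCtr and 0.338, 0.657 and 0.391 in shZNF148. This ratio was higher in all 3 shZNF148 samples (exact two-sided permutation p = 0.1, 0.2 adjusted over the 14 ratios). EIF4EBP3 shares its row with ANKHD1, and that joined row differed by 0.26 (limma adjusted p = 0.0764). EIF4ENIF1, which carries eIF4E into the nucleus and to RNA granules, overlapped between groups at a mean of 6.69 and 6.92 FPKM. The 4 inhibitor rows together summed to 91.5% of their control level, since EIF4EBP1 makes up most of that sum.

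EIF4E itself, the cap-binding protein, was at 5.88, 5.67 and 5.60 FPKM in shCtr and at 5.79, 4.82 and 5.44 FPKM in shZNF148. The groups overlapped, and the interval of the log2 difference ran from -0.30 to 0.13. The ratio of EIF4EBP2 to EIF4E was 4.12, 4.504 and 4.75 in shCtr and 7.31, 10.4 and 7.84 in shZNF148. That of EIF4EBP1 to EIF4E was 24.6, 25.2 and 25.9 in shCtr and 21.6, 15.9 and 20.0 in shZNF148. The ratio of EIF4EBP2 was higher and that of EIF4EBP1 lower in every shZNF148 sample. Each had an exact two-sided permutation p of 0.1, and 0.2 after adjustment over the 14 ratios. Of these 2 genes, only EIF4EBP2 itself passed the test.

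EIF4B, which stimulates the eIF4A helicase and is a target of S6 kinase, spans bases 53006282 to 53042215 of chromosome 12 (plus strand). It was at 28.2, 30.1 and 28.8 FPKM in shCtr and at 19.1, 15.7 and 19.4 FPKM in shZNF148. The shZNF148 values were all well under the controls, and the mean fell from 29.0 ± 0.968 to 18.1 ± 2.06 FPKM (SD, n = 3), to 62.2% of control, with a log2 difference of -0.66 (SE 0.09, limma adjusted p = 0.0147). EIF4H, its smaller relative, overlapped between groups with a difference of -0.05 and an interval from -0.26 to 0.16.

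The scaffold EIF4G1 and the helicase EIF4A1 are the core partners of eIF4E. EIF4G1 was at 177, 190.4 and 177 FPKM in shCtr and at 189.7, 174 and 192 FPKM in shZNF148, with a log2 difference of 0.03 and an interval from -0.13 to 0.19. The EIF4A1 row, joined with SENP3 and SNORA67, differed by -0.05 with an interval from -0.20 to 0.10. Both overlapped between the groups. EIF4A2, the second eIF4A, stood at 0.514, 0.516 and 0.525 of the EIF4A1 row in shCtr and at 0.457, 0.540 and 0.530 in shZNF148, which overlapped (exact two-sided permutation p = 1). EIF4A3, the helicase of the exon junction complex, EIF4G3, a further scaffold, and EIF4E2, a cap-binding protein that represses translation, differed by 0.04, 0.02 and 0.14 and did not pass.

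EIF4G2, a scaffold that lacks the site for eIF4E and serves cap-independent initiation, was at 206, 235 and 213 FPKM in shCtr and at 277, 253 and 265 FPKM in shZNF148. The groups did not overlap, though shCtr replicate 2 came close to the lowest shZNF148 sample. The rise of 0.28 passed narrowly (SE 0.07, limma adjusted p = 0.0483), and the adjusted p was 0.0664 with no filter on low values and 0.0681 without the variance trend. EIF4G2 was 1.16, 1.23 and 1.21 of the EIF4G1 level in shCtr and 1.46, 1.45 and 1.38 in shZNF148. Over the 10 tested rows of eIF4F and its helicase partners, 1 rose and 1 fell, against 5.46% and 8.13% of all rows. The summed FPKM of these factors was 102% of control. Their median of -0.02 turned to 0.03 after quantile normalization.

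Of the factors that select the start codon, EIF1, EIF1AX, EIF1B, EIF5 and EIF5B did not pass. The only row of this group to rise was EIF1AD, placed here by its name. It encodes a small protein with an eIF1A-like domain and was at 19.9, 21.1 and 20.1 FPKM in shCtr and at 25.9, 32.0 and 28.0 FPKM in shZNF148. The shZNF148 values all lay above the closely grouped controls, with a log2 difference of 0.47 (SE 0.09, limma adjusted p = 0.0254). EIF5, which triggers GTP hydrolysis by eIF2 at the start codon, was at 31.3, 52.6 and 38.6 FPKM in shCtr and at 59.1, 60.3 and 56.4 FPKM in shZNF148. Its controls were spread widely, and the difference of 0.54 did not pass (SE 0.17, limma adjusted p = 0.0807), though it did without shCtr replicate 2 (0.74, adjusted p = 0.0446). EIF1, which keeps the scanning complex open and is the most abundant of this group, differed by -0.24 (limma adjusted p = 0.0619), while EIF1B, EIF1AX and EIF5B overlapped between groups.

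The eIF2 heterotrimer itself did not pass in any subunit. EIF2S1, the alpha subunit that stress kinases phosphorylate, differed by 0.02, and EIF2S2 and EIF2S3, the beta and gamma subunits, by -0.21 and -0.18 (limma adjusted p = 0.914, 0.173 and 0.331). EIF2S2 nevertheless lay wholly under the controls, with an interval from -0.43 to 0.02. Of the 5 tested rows of this group, 0 rose and 2 fell, against 5.46% and 8.13% of all rows. Both were factors that can bring tRNA to the ribosome apart from the trimer. The interval of EIF2D, from -0.44 to -0.13, overlapped that of EIF2S2. EIF2A was at 28.7, 28.0 and 28.9 FPKM in shCtr and at 21.7, 15.5 and 21.1 FPKM in shZNF148. All shZNF148 samples were under the controls, with replicate 2 the lowest, and the fall was 0.54 on the log2 scale (SE 0.13, limma adjusted p = 0.0394). With no filter on low values the adjusted p of EIF2A was 0.0571. EIF2D was at 31.7, 31.6 and 30.4 FPKM in shCtr and at 25.8, 26.4 and 24.0 FPKM in shZNF148. It fell by 0.29 with no overlap (SE 0.06, limma adjusted p = 0.0360).

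None of the 3 tested eIF2 kinases passed (limma, 1 with an unadjusted p under 0.05, as had 33.8% of all rows). EIF2AK1, the heme-regulated kinase, differed by -0.18, EIF2AK4, the amino acid sensor GCN2, by -0.15, and EIF2AK3, the endoplasmic reticulum kinase PERK, by -0.03. Of the 5 subunits of eIF2B, the exchange factor that reloads eIF2 with GTP, 0 passed and 1 had an unadjusted p under 0.05. Their differences ran from -0.17 (EIF2B1) to 0.18 (EIF2B3), and EIF2B3, a subunit of the catalytic arm, was the only one whose groups did not overlap, being higher in shZNF148. The summed FPKM of eIF2B was 96.1% of control.

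The eIF3 complex, the scaffold of the initiation complex, had 13 tested rows, of which 0 rose and 2 fell. Of all tested rows, 5.46% passed higher and 8.13% lower. EIF3D, a subunit that can itself bind the cap of selected mRNAs, was at 143, 147.8 and 152 FPKM in shCtr and at 122, 105 and 114 FPKM in shZNF148. The groups were well apart, with a log2 difference of -0.37 (SE 0.07, limma adjusted p = 0.0252). EIF3F, a subunit of the structural core, was at 74.6, 70.6 and 74.8 FPKM in shCtr and at 64.4, 55.3 and 58.0 FPKM in shZNF148. It fell by 0.31 with no overlap (SE 0.07, limma adjusted p = 0.0416), and the adjusted p was 0.0723 after quantile normalization, where the difference was -0.25. With no filter on low values it was 0.0528, and without the variance trend 0.0579.

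Of the 13 eIF3 rows, 11 were fitted lower, with a median of -0.14, and 6 lay wholly under the controls. Over all tested rows, 49.1% were fitted lower and 21.0% lay wholly under the controls. After quantile normalization 8 of the 13 were fitted lower, with a median of -0.04, against 5491 of all 11777 tested rows. In the PCI and MPN core, 8 rows were tested, from subunits A, E (a pair of rows), F, H, K, L and M. Of these, 7 were fitted lower, both rows of EIF3E among them. The median of the 8 rows was -0.17, with a range from -0.31 to 0.08. The B, G and I subunits, which form a separate arm, lay between -0.10 and -0.02. EIF3J, a loosely bound subunit, differed the other way by 0.26 (limma adjusted p = 0.125). EIF3E had a pair of rows, and the higher one, the most abundant of all factor rows, stood at 1013, 1096 and 1117 FPKM in shCtr and at 941, 1024 and 766 FPKM in shZNF148. These overlapped, with a difference of -0.25 that did not pass (limma adjusted p = 0.178). EIF3C and its near-identical copy EIF3CL share both of their rows, whose means were under 1 FPKM in each group, and were not tested.

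Of the 4 eIF5A rows, 3 were fitted lower in shZNF148 and 1 higher, and none passed. EIF5A, the only protein known to carry hypusine together with its paralog EIF5A2, was at 286, 307 and 302 FPKM in shCtr and at 267, 209.8 and 235 FPKM in shZNF148. The groups did not overlap, and the difference of -0.34 had a limma adjusted p of 0.0612. EIF5A2 differed by -0.35 in its more abundant row and by 0.31 in the other (limma adjusted p = 0.0743 and 0.450), and EIF5AL1, a near-identical copy of EIF5A, by -0.40 (limma adjusted p = 0.0812). Reads of EIF5A and EIF5AL1 may be shared between them. Limma gave 3 of these 4 rows an unadjusted p under 0.05, as it did 33.8% of all tested rows, and their summed FPKM was 79.7% of control. EIF6, which keeps the large subunit from joining too early, overlapped at a mean of 232 ± 9.43 and 237 ± 5.75 FPKM (SD, n = 3), with an interval of the log2 difference from -0.10 to 0.17. The pseudogene EIF3IP1 differed by 0.06 and overlapped.

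The members left untested had means under 1 FPKM. They were the rows of EIF3C with EIF3CL, the pseudogene EEF1DP3, the Y-linked EIF1AY, the oocyte factor EIF4E1B, listed at 0 in all 6 samples, and EIF4E3, a cap-binding paralog with group means of 0.543 and 0.574 FPKM.

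Genes that act on these factors were read from 5 lists with 42 tested rows, of which 1 rose (2.38%, against 5.46% of all rows) and 2 fell (4.76%, against 8.13%), with a median of 0.01. Both shares were under the background. DHPS, which starts the hypusine modification of eIF5A, was at 69.6, 68.6 and 71.7 FPKM in shCtr and at 57.2, 50.1 and 55.2 FPKM in shZNF148. It fell by 0.37 with no overlap (SE 0.07, limma adjusted p = 0.0247). DPH2, which helps to build the diphthamide of eEF2, was at 8.43, 11.0 and 9.86 FPKM in shCtr and at 14.8, 13.8 and 12.9 FPKM in shZNF148, a rise of 0.47 with no overlap (SE 0.11, limma adjusted p = 0.0396). PPP1R15B, the constitutive guide of the phosphatase that acts on eIF2 alpha, was at 18.9, 20.7 and 18.9 FPKM in shCtr and at 16.2, 14.045 and 15.4 FPKM in shZNF148. It fell by 0.34, again with no overlap (SE 0.08, limma adjusted p = 0.0405). With no filter on low values, DPH2 and PPP1R15B had adjusted p-values of 0.0585 and 0.0547.

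The signalling list held mTOR complex 1, which phosphorylates the 4E-BPs, the S6 kinases, which phosphorylate eIF4B, and the upstream regulators RHEB, TSC1 and TSC2. Among its 9 tested rows limma passed 0, and 0 had an unadjusted p under 0.05. The differences of these 9 rows ran from -0.02 to 0.19. Of all tested rows, 5.46% passed higher and 8.13% lower, and 33.8% had an unadjusted p under 0.05. At such shares, few of 9 rows would pass, so the count of 0 does not show that the pathway was unchanged. Among 11 rows of poly(A)-binding proteins and partners of the 4E-BP pathway limma passed 0 and 3 had an unadjusted p under 0.05, a smaller share than over all rows. This count of 0 depended on single libraries. The row of PDCD4, an inhibitor of eIF4A, also holds the microRNA MIR4680 and cannot be read for PDCD4 alone. It stood at 99.0 FPKM in shZNF148 replicate 2 against 7.06 and 8.66 FPKM in the other shZNF148 samples. In shCtr it stood at 14.1, 13.9 and 13.1 FPKM. Without shZNF148 replicate 2 the joined PDCD4 row differed by -0.73 and PAIP2, an inhibitor of the poly(A)-binding protein, by -0.25. Both passed (limma adjusted p = 0.0141 and 0.0429). A row of MKNK2, a kinase of eIF4E, passed without shCtr replicate 1 (1.16, limma adjusted p = 0.0415). Among 5 rows of termination and rescue factors limma passed 0, and 0 had an unadjusted p under 0.05, beside the same shares over all rows.

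Promoters of the tested factors were compared by the words they hold, in the 250 bases before the RefSeq start, on both strands. Of 58 tested genes, 47 had an entry, and 11 of the 12 that passed. EEF1A2 had none. Only the first listed start of each gene was used, which need not be the outermost. For EIF3F the window began at base 7987087 of chromosome 11, while the gene begins at base 7970251. The E-box CACGTG, the word that MYC and related proteins are known to bind, stood in 12 of 47 factor promoters (25.5%), against 9.11% of the promoters of all tested rows and 6.49% of 27305 promoters. Among the genes that passed, it was found in 3 of 11 (27.3%), close to its share in all tested factors, namely in EIF3F, EIF4B and EEF2K. The GC box stood in 33 of 47 (70.2%), against 68.5% and 42.3%, and in 7 of the 11 genes that passed (63.6%). A longer C-rich word, CCCCTCCC or its reverse complement GGGAGGGG, stood in 14 of 47 (29.8%), against 17.2% and 13.0%. Among the genes that passed it stood in 4 of 11 (36.4%), namely EIF2D, EIF2A, EIF1AD and EIF4B. In EEF2K the E-box began 59 bases before the start, directly behind a GC box at 66 bases, with further GC boxes at 22 and 12 bases. EIF4B held the E-box at 22 bases and the C-rich word at 67 bases, overlapping the GC box at 71 bases, and EIF4EBP2 held the GC box at 112 and 68 bases. The factor promoters had a median of 63.2% G and C, against 58% over all promoters. The median over the promoters of tested rows was not computed, so this difference may be shared by expressed genes. The words were chosen after the values were seen, and a match is a description of the letters in this window, not a binding site.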

How the data were processed

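RNA-seq of 6 MDA-MB-231 samples (3 shCtr, 3 shZNF148) was read from 1 table of FPKM values that the authors deposited, with 0 columns left unused. The submitters' processing notes name bcl2fastq 2.17.1.14, TopHat2 2.0.14, Cufflinks 2.2.1 and Cuffnorm 2.2.1 with builds hg18 and hg19, whereas the paper's methods name Salmon on GRCh38 and DESeq2. Which of these made the table is not settled, the strand setting is not given in the sources used here, and near-identical copies can share reads. A test on counts was not possible.

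The test used log2(FPKM + 1) and kept rows whose mean over the samples reached 1 FPKM (11777 of 24108). The limma 3.58.1 model, run in R 4.3.3, held a term for condition alone, variances followed a trend on the mean, and the Benjamini-Hochberg method was applied over all tested rows. Passing meant an adjusted p under 0.05. A difference on this scale understates that of low rows. Single values were compared by exact two-sided permutation tests. On simulated data with 200 changed rows among 11777, 52% of the 1.5-fold and 92% of the 2-fold changes passed, beside 12 unchanged rows. The changed rows were drawn from the more abundant rows only, so low rows such as EEF2K are not covered. In the real data 3981 rows had an unadjusted p under 0.05 (limma), so these shares may not carry over.

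The members, complexes and lists were chosen with earlier results of these data known. Named were ZNF148, all factor rows that passed, the most abundant and most changed row of each complex, listed paralogs and genes of the other lists that passed. A few more members are named for completeness. Of the replicate numbers shared by both groups, no label says that they mark cultures handled together. Alternatives covered the filter, pseudocount, scaling, replicate block, variance trend, summing of rows that share a gene entry and leaving out each replicate. Coordinates come from GENCODE release 44 on GRCh38 and promoters from RefSeq (GRCh38.p14), matched by symbol. Python 3.11.15 with pandas 2.3.3 and scipy 1.17.1 was used for the remaining steps.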

Additional observations from a re-analysis of the deposited data

How the results depend on the processing

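Among the translation factors, 3 higher and 9 lower rows passed. A replicate block turned these counts to 1 and 2, and leaving out each replicate gave 0 to 3 higher and 0 to 11 lower. Over all rows, 643 passed higher and 957 lower. The block gave 130 and 271, no filter on low values gave 401 higher, and leaving out each replicate gave 3 to 628 higher and 19 to 1092 lower. The replicate numbers were not taken as pairs, because the paper names no pairing term. Over all rows the deviations of same-numbered samples correlated at 0.00104, -0.0881 and 0.0304. With 3 samples a group, these values cannot tell whether same-numbered samples were handled together. The joined ERBB2 row was nevertheless high in replicate 2 of both groups, and whether same-numbered samples share an origin was not tested further. The factor median of -0.08 was -0.034 after quantile normalization, and -0.11 to -0.065 with each replicate left out. ZNF148 stayed between -1.74 and -1.45 when replicates were left out, with adjusted p-values of 0.0673 and 0.0653 without shCtr replicates 1 and 3. Of the 60 tested rows, 14 changed sign when a replicate was left out, none of which had passed. The rows that passed had groups without overlap, so their sign could not change in this way. Among the genes named by rule the ranges were -0.00015 to 0.083 for EEF1E1, -0.15 to 0.054 for EIF1B, -0.075 to 0.20 for EIF3IP1, -0.0084 to 0.084 for EIF4A3 and -0.010 to 0.032 for EIF4G3. The causes were not tested, beyond that fewer samples were fitted where a replicate was left out. The number of reads is unknown, so depth limits low rows such as EIF4E3 and EEF2K to an unknown extent.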

Other observations

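The shZNF148 replicate with the least ZNF148 (0.282 FPKM, replicate 2) also held the most extreme value, in the direction of the fitted difference, in 8 of the 12 translation factor rows that passed, among them EEF1A2, EIF4B, EIF2A, EIF1AD and EIF4EBP2. It did so in 32 of the 60 tested factor rows (53.3%). The same library was the most extreme in 61.4% of the 1600 rows that passed over all genes and in 50.3% of all tested rows, so the factors were close to the background in this respect. Its part in the results was not tested beyond leaving it out. After that, 3 factor rows were higher and 11 lower, and 628 and 1092 of all rows.

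The level of EEF2K relative to EEF2, kinase to substrate, was 0.00569, 0.00630 and 0.00542 in shCtr and 0.00441, 0.00347 and 0.00477 in shZNF148. The ratio was lower in all 3 shZNF148 samples although both genes fell (exact two-sided permutation p = 0.1, 0.2 adjusted over the 14 ratios).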
